A study of Mus musculus with 6 samples.

Results

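The genes described here are 8 genes of cholesterol export, synthesis and control, read in single-cell RNA counts of mouse lung. They are Abca1 and Abcg1 (export), Nr1h3 and Mylip (a sterol-sensing receptor and one of its targets), Srebf1 and Srebf2 (transcription factors of lipid synthesis), and Hmgcs1 and Sqle (enzymes of the synthesis pathway). They were taken by gene symbol from the 32285 genes in the files, and all 8 were found once. The list was drawn up with earlier results from these libraries known, and the values that led to it were not recorded. The values of each gene are therefore descriptions of these libraries, and no count over the 8 genes supports the choice of the set.

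Lungs came from wild-type C57BL/6N mice, and each library was made from lung tissue pooled from 3 mice of 1 sex. There were 6 libraries, 1 female and 1 male in each of 3 conditions: postnatal day 1 in room air (21% oxygen), postnatal day 21 in room air, and postnatal day 21 after 95% oxygen from day 1 to day 5 followed by room air. Excess oxygen in the first days of life is used in mice as a model of the lung injury of preterm infants. Dissociated live cells were sorted, and transcripts were counted as unique molecular identifiers (UMIs) with the 10x Genomics 3v3.1 chemistry. A comparison of conditions therefore rests on 1 library per sex on each side. Its p-values rest on the spread that remains between those libraries once sex is taken into account, with 1 residual degree of freedom. The test therefore borrows spread from the other genes tested, and its p-values do not measure variation between replicate pools. The intervals of single libraries cover counting error only.

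Cells keep free cholesterol within narrow limits. When sterols are scarce, the transcription factor encoded by Srebf2 is released from the endoplasmic reticulum and turns on genes of synthesis and uptake, among them Hmgcs1 and Sqle. When oxysterols accumulate, liver X receptors such as the product of Nr1h3 turn on export through Abca1 and Abcg1, the synthesis factor Srebf1, and Mylip, which encodes a ubiquitin ligase that degrades the LDL receptor. Alveolar macrophages take up and break down surfactant, a lipid mixture that alveolar type 2 (AT2) cells make and secrete, and loss of Abcg1 is known to load these macrophages with lipid.

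Promoter windows of RefSeq (build GRCm38.p6, 250 bases before to 50 after a gene's start) were given for 6 of the 8 genes. The stretches below are shown because they carry the sterol response letters of this pathway, and all lie upstream of the listed start. In Hmgcs1 (chr13:119690174-119690262, plus strand) and Srebf2 (chr15:82147067-82147154, plus strand) the capitals mark the core of a sterol regulatory element, as TCACNCCAC in Hmgcs1 and as the shorter TCACNCCA in Srebf2. In Abca1 (chr4:53159907-53160002, minus strand) and Srebf1 (chr11:60210598-60210693, minus strand, at the start of a shorter transcript inside the gene) the capitals mark TGACCG and TAACCC with 4 bases between them (also in capitals), a degenerate direct repeat of the kind that liver X receptors bind.
Hmgcs1: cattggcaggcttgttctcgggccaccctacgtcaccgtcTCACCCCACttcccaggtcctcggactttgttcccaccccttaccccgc
Srebf2: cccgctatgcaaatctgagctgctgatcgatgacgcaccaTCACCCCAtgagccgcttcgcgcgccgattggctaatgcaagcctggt
Abca1: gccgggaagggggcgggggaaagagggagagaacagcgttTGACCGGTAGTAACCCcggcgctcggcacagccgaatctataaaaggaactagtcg
Srebf1: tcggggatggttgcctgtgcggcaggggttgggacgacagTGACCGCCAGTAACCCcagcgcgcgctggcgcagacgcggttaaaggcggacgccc

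The match lay 137 bases upstream of the start in Hmgcs1, 162 in Srebf2, 67 in Abca1 and 182 in Srebf1. Both strands were searched in 32851 windows. TCACNCCA was present in 4.36% of all windows, and the longer form TCACNCCAC, which Hmgcs1 also carries, in 1.24%. That repeat was present in 3 windows in all (0.00913%), among them those of Abca1 and Srebf1. Its letters, with any base at the 4 between, and TCACNCCA were added to the search after the windows had been read, so the low shares are a description. The E-box CACGTG matched in Abca1 (7.15% of all windows). ATTGG, the inverted CCAAT box, matched in Hmgcs1, Mylip, Srebf1 and Srebf2 (37.4% of all windows). A direct repeat of AGGTCA with 4 bases between the copies matched in none of the 6 genes and in 0.0152% of all windows.

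The libraries held 122173482 to 163649658 UMIs each. The authors had given 55882 of 76024 barcodes one of 31 classes, and these classes are used throughout. Alveolar macrophages numbered 149 (female) and 177 (male) at day 1. At day 21 there were 609 and 348 in the room air libraries and 136 and 308 in the hyperoxia libraries. Over all 6 libraries their median was 14826 to 20503 UMIs per cell. All 10 alveolar macrophage markers read were present in this class in every library. Their summed level was 4178 and 4864 CPM (the UMIs of a gene per 1000000 UMIs of the class in a library) at day 1 and 13150 to 15870 CPM at day 21. Scrublet called 24.3% (female) and 16.6% (male) of the alveolar macrophages of the hyperoxia libraries doublets, against 2.01% to 3.95% in the other 4 libraries. In the female hyperoxia library 48 of 136 alveolar macrophages (35.3%) held no UMI of Xist, the female-specific RNA, against 12 of 609 (1.97%) in the female room air library. Any pair of libraries shared 26 to 62 barcodes, and 0 alveolar macrophage barcodes were shared. The changes of the 8 genes after hyperoxia are given with and without these cells.

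Across classes with at least 50 cells in both libraries of a condition, Abcg1 set alveolar macrophages apart. It encodes a transporter that passes cholesterol to high-density lipoproteins, and it lies on chromosome 17, 31057675 to 31117988, plus strand (GENCODE M21, GRCm38, as for all gene positions here). Its mean level over the sexes was 715 CPM at day 1, 1468 CPM at day 21 in room air and 1210 CPM after hyperoxia, the highest of 20, 17 and 17 classes. The next class stood at 528 CPM at day 1 (transient macrophages), 167 CPM in room air and 166 CPM after hyperoxia (nonclassical monocytes), and the libraries of the first and second class did not overlap in any condition. Among classes with enough cells, Hmgcs1 was also highest in alveolar macrophages at day 21, at 97.9 CPM in room air against 36.8 CPM in aerocyte capillary cells (aCap), the next class, and at 91.1 CPM after hyperoxia against 81.6 CPM in AT2 cells. AT2 is missing from the room air order because its male library held 7 cells, and its female library stood at 108 CPM for Hmgcs1 there. At day 1 the order for Hmgcs1 was led by transient macrophages at 93.0 CPM, with arterial cells and AT2 overlapping, and alveolar macrophages were at rank 5 with 74.4 CPM.

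**Figure D1:**
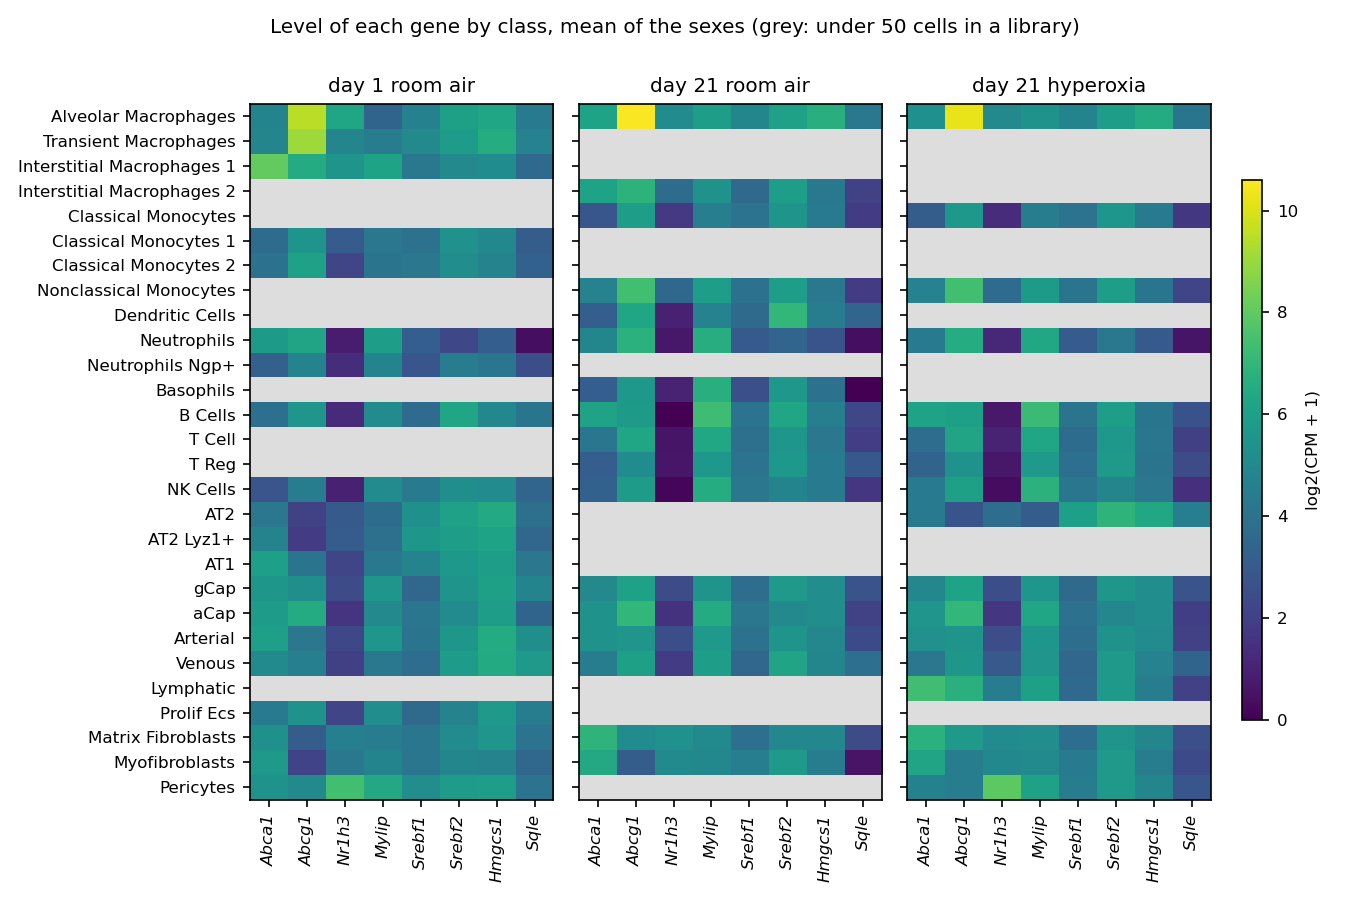
Level of the 8 genes (columns) in each class (rows) as log2(CPM + 1) of the mean over the sexes, in 3 panels for day 1 room air, day 21 room air and day 21 hyperoxia, with grey where a library had under 50 cells. The brightest cell of every panel is Abcg1 in alveolar macrophages, at 715, 1468 and 1210 CPM.

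For the other genes the order covers the classes with enough cells in the condition. Nr1h3 was highest in pericytes at day 1 (169 CPM) and after hyperoxia (245 CPM), with alveolar macrophages at rank 2 with 76.7 CPM and at rank 3 with 30.8 CPM. Srebf1 was led by the AT2 class with Lyz1 at day 1 (47.5 CPM) and by AT2 after hyperoxia (61.8 CPM), where its AT2 libraries did not overlap with alveolar macrophages at 26.6 CPM. In day 21 room air, where AT2 is missing, alveolar macrophages led Srebf1 at 28.3 CPM, without overlap with myofibroblasts at 22.0 CPM. Nr1h3 in pericytes was also the highest level measured there, at 252 and 279 CPM, but the male library held 46 pericytes, so they are not in that order. Of the classes with enough cells, matrix fibroblasts stood at 40.5 CPM and alveolar macrophages at 33.7 CPM for Nr1h3. AT2 also led Srebf2 after hyperoxia, at 117 CPM against 60.1 CPM in nonclassical monocytes. Srebf2 was led by dendritic cells in day 21 room air (130 CPM), where alveolar macrophages were at rank 4 with 66.6 CPM. AT2 is missing from that order, as above.

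Abca1 and Mylip were not led by alveolar macrophages in any condition. Among classes with enough cells, Abca1 was highest in interstitial macrophages 1 at day 1 (262 CPM), in matrix fibroblasts in day 21 room air (118 CPM) and in lymphatic cells after hyperoxia (164 CPM). Lymphatic cells, with 23 and 36 cells, stood at 327 and 315 CPM in day 21 room air, and without called doublets at 426 and 425 CPM after hyperoxia. Alveolar type 1 (AT1) cells, also outside both day 21 orders, stood at 171.9 CPM (female, 32 cells) and 190.3 CPM (male, 14 cells) in room air. After hyperoxia they stood at 240.5 CPM (female, 40 cells) and 261.3 CPM (male, 57 cells). Alveolar macrophages were at rank 12 of 20 classes for Abca1 at day 1 (26.2 CPM), at rank 3 of 17 in day 21 room air (70.4 CPM) and at rank 7 of 17 after hyperoxia (38.7 CPM), and overlapped their next neighbour in room air at both ages. For Mylip they were last of 20 classes at day 1 (9.81 CPM), at rank 7 of 17 in day 21 room air (60.0 CPM) and at rank 13 of 17 after hyperoxia (43.2 CPM). Sqle was led by venous cells at day 1 (52.1 CPM), by alveolar macrophages in day 21 room air (17.7 CPM) and by AT2 after hyperoxia (21.9 CPM), and each of these overlapped the next class. AT2, missing from the room air order, was at 25.3 CPM for Sqle in its female library. Classes were clustered by the authors on the same counts, so the order of classes is a description with no test.

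The first comparison was hyperoxia against room air at day 21, which asks what differs once the lungs have had time in room air after the exposure. In alveolar macrophages 2 of the 8 genes were called, Abca1 and Mylip, and both were lower after hyperoxia. A gene was called at a Benjamini-Hochberg adjusted p under 0.05 in edgeR's quasi-likelihood test with sex as a covariate, over all genes tested in the class. By that rule 1.78% of the 11678 genes tested were lower, 9.1% were higher and 10.9% were called in either direction. With library totals in place of the trimmed mean (TMM) scaling, 86 genes were lower and 952 higher, in place of 208 and 1063. The fitted change was negative for 8 of the 8 genes, with a median of -0.21 on the log2 scale against -0.01 over all genes tested.

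Abca1 (chromosome 4, 53030787 to 53159895, minus strand) encodes the transporter that loads cholesterol onto apolipoprotein A-I. Its level was 65.0 CPM (female) and 75.8 CPM (male) in room air and 43.5 CPM (female) and 33.8 CPM (male) after hyperoxia, from 769, 528, 100 and 165 UMIs. Both hyperoxia libraries lay below both room air libraries. The fitted log2 change was -0.95 (SE 0.139, edgeR adjusted p = 1.41e-05). Within females the ratio of hyperoxia to room air was 0.670 (95% counting interval 0.538 to 0.826), and within males 0.446 (0.372 to 0.532). A single cell held 17 of the 100 Abca1 UMIs of the female hyperoxia library (17.0%).

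Mylip (chromosome 13, 45389742 to 45412022, plus strand) was close to equal between the sexes in each condition of this comparison. It stood at 59.2 CPM (female) and 60.7 CPM (male) in room air and at 43.1 CPM (female) and 43.2 CPM (male) after hyperoxia. The groups did not overlap, and the fitted log2 change was -0.53 (SE 0.127, edgeR adjusted p = 0.00474). The ratio of hyperoxia to room air was 0.727 (0.583 to 0.899) in females and 0.712 (0.601 to 0.842) in males.

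RNA of some other cell types moved with the same contrast in this class. The summed level of 8 endothelial markers, none at 0 UMIs, was 1257 CPM (female) and 974 CPM (male) in alveolar macrophages after hyperoxia against 144 and 194 CPM in room air. Markers of T cells (6 of 6 present) stood at 43.1 and 41.0 CPM against 8.79 and 10.9 CPM, and those of AT1 cells (8 of 8) at 165 and 160 CPM against 58.1 and 61.7 CPM. Interstitial macrophage markers stood at 54.0 and 48.8 CPM against 22.2 and 8.61 CPM, with C1qc, Folr2 and Cd163 at 0 UMIs in both hyperoxia libraries. Markers of monocytes (360 and 307 CPM against 409 and 293 CPM) and neutrophils (238 and 305 CPM against 314 and 124 CPM) overlapped between the conditions. Those of AT2 cells were close, at 210 and 235 CPM against 205 and 179 CPM. With the called doublets left out, the endothelial sums were 184 and 199 CPM against 133 and 144 CPM, and 2.91% of all genes were called in place of 10.9%. Without the doublets Abca1 remained called at -0.80 (edgeR adjusted p = 1.08e-05) and Mylip at -0.51 (edgeR adjusted p = 0.0205). Without the female hyperoxia cells that lacked Xist, Abca1 was called at -0.76 (edgeR adjusted p = 0.0196) and Mylip was not, at -0.42 (edgeR adjusted p = 0.0802). With equal numbers of cells per library neither was called, at an edgeR adjusted p of 0.172 for Abca1 (-0.60, SE 0.207) and 0.161 for Mylip (-0.47, SE 0.161). DESeq2 called Abca1 (-0.94, adjusted p = 0.0145) and not Mylip (-0.53, adjusted p = 0.495).

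Detection per cell was read beside these levels. A UMI of Abca1 was seen in 32.2% (female) and 34.5% (male) of alveolar macrophages in room air and in 25.0% and 20.5% after hyperoxia. When each cell was thinned to 2000 UMIs the shares were 10.2% and 8.62% in room air and 5.93% and 5.19% after hyperoxia. Mylip was seen in 46.0% and 48.3% of cells in room air and in 39.0% of cells in each hyperoxia library. Thinned, these were 9.03% and 10.9% against 7.41% and 4.87%. No share in a class that lacks these genes was set beside them, so RNA from other cells is not separated from expression in these shares.

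**Figure D2:**
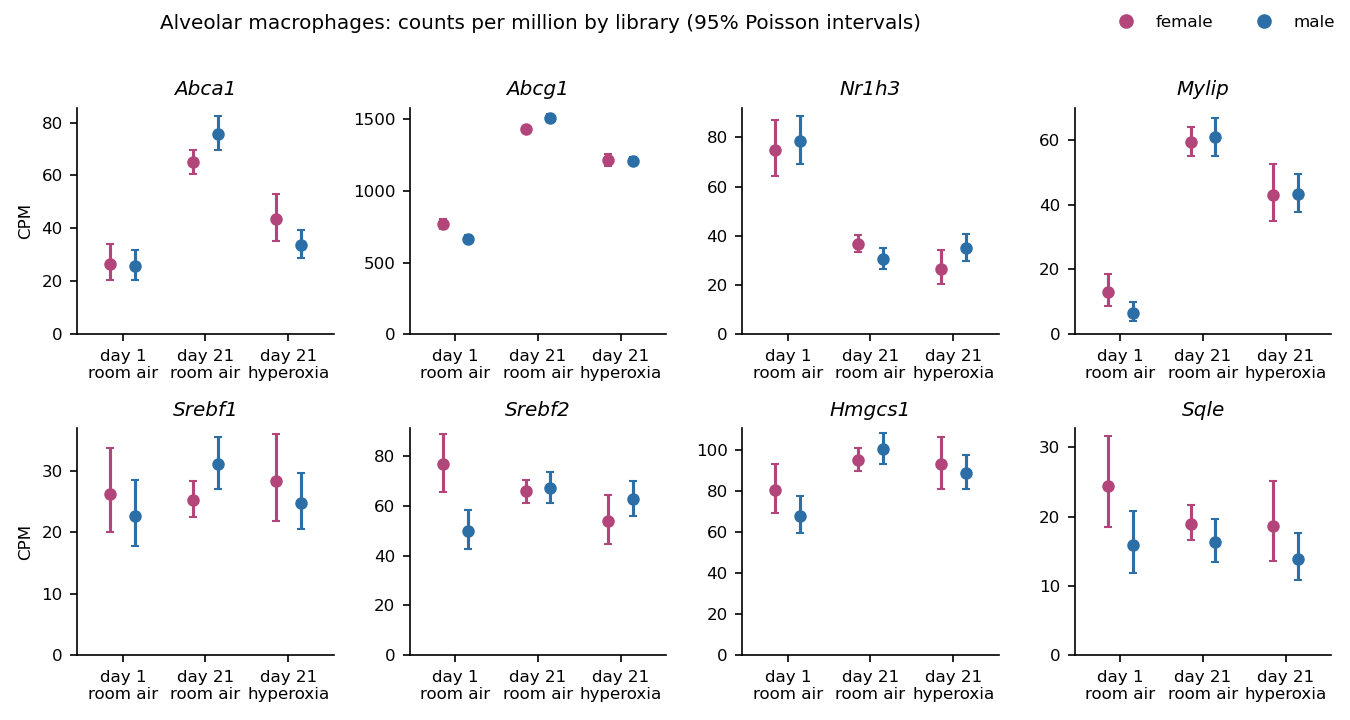
CPM of the 8 genes in alveolar macrophages (vertical axis, from 0, one panel per gene) in the 6 libraries, by condition, with sex as colour and exact Poisson 95% intervals as bars. Abca1 and Mylip lie lower in both hyperoxia libraries (33.8 to 43.5 and 43.1 to 43.2 CPM) than in both day 21 room air libraries (65.0 to 75.8 and 59.2 to 60.7 CPM).

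The remaining 6 genes were not called in this comparison. Abcg1 was 1431 and 1504 CPM in room air and 1213 and 1206 CPM after hyperoxia in females and males, so the groups did not overlap. Its fitted log2 change was -0.33 (SE 0.148, edgeR adjusted p = 0.199). The within-sex ratios were 0.848 (0.814 to 0.882) in females and 0.802 (0.776 to 0.828) in males, and at least 98.9% of alveolar macrophages of every library held a UMI of it. In AT2 cells, where Abcg1 was near its lowest level, 2.70% to 7.41% of cells held one.

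Nr1h3 (chromosome 2, 91184061 to 91202834, minus strand), the liver X receptor alpha gene, pointed in opposite directions in the sexes. It was 36.8 CPM in female room air and 26.6 CPM in female hyperoxia, a ratio of 0.721, and 30.6 and 35.0 CPM in the male libraries, a ratio of 1.15. The fitted change was -0.15 (SE 0.166, edgeR adjusted p = 0.736). The conditions overlapped, and the interaction of sex and hyperoxia was -0.48 (SE 0.329, edgeR adjusted p = 1).

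The synthesis factors and enzymes were not called. The groups overlapped for Srebf1 and Sqle, while both hyperoxia libraries lay below both room air libraries for Srebf2 and Hmgcs1. Srebf1 (chromosome 11, 60199089 to 60222581, minus strand) was 25.4 and 31.1 CPM in room air and 28.3 and 24.8 CPM after hyperoxia, a fitted log2 change of -0.16 (SE 0.170). Srebf2 (chromosome 15, 82147181 to 82205379, plus strand) was 65.9 and 67.3 CPM against 54.0 and 62.7 CPM (-0.24, SE 0.122). Hmgcs1 (chromosome 13, 119690379 to 119708260, plus strand), which makes HMG-CoA, was 95.2 and 100.6 CPM against 93.1 and 89.1 CPM (-0.16, SE 0.109). Sqle (chromosome 15, 59315077 to 59331192, plus strand), the squalene epoxidase, was 19.0 and 16.4 CPM against 18.7 and 13.9 CPM (-0.19, SE 0.209). The edgeR adjusted p-values of these 4 genes ran from 0.305 to 0.744. With the called doublets left out the changes were -0.21 for Abcg1, 0.0088 for Nr1h3, -0.20 for Srebf1, -0.28 for Srebf2, -0.09 for Hmgcs1 and -0.21 for Sqle. Without the female hyperoxia cells that lacked Xist they were -0.33, -0.10, -0.20, -0.22, -0.15 and -0.14, and no gene of the 6 was called in either fit. Of the 8 genes, 5 overlap other annotated genes. On the same strand lie Gm13783 in Nr1h3, Gm49502 and Mir33 in Srebf2, Gm25447 in Abcg1, and Mir6921 and Mir6922 in Srebf1. On the opposite strand lie Rai1 in Srebf1, Gm48342 in Hmgcs1 and Gm23390 in Nr1h3, and how the counting treated shared reads is not given in the sources used here.

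Lists of related genes, chosen with these results known, were read from the same fits. Of 20 synthesis enzymes tested in alveolar macrophages, 0 were called after hyperoxia by edgeR or DESeq2 and 5 were lower at an unadjusted p under 0.05. Of all 11678 genes tested in the class, 2176 were under that level in either direction. A negative fitted change was seen in 19, with a median of -0.20. With Hmgcs1 and Sqle left out the count was 0 of 18 and the median -0.24, against -0.01 over all genes tested. Among 13 liver X receptor targets and receptors, 1 was higher and 3 were lower, with a median of -0.15. Of 8 such genes outside the set, 1 was called in each direction, with a median of 0.02.

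The target that was higher was Pltp, which encodes phospholipid transfer protein. It was 66.3 (female) and 52.4 CPM (male) in room air and 137.5 and 111.9 CPM after hyperoxia, a log2 change of 1.02 (SE 0.110, edgeR adjusted p = 1.28e-07), called in 12 of 13 alternatives. The lower target beside Abca1 and Mylip was Apoc1, an apolipoprotein, at 18.3 and 7.03 CPM in room air and 4.79 and 4.92 CPM after hyperoxia (-1.23, edgeR adjusted p = 0.0113). Apoc1 was called in only 5 of 13 alternatives.

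Genes listed as lipid regulators of alveolar macrophages had negative fitted changes. The summed level of the 10 alveolar macrophage markers overlapped between the conditions. It was 13570 (female) and 14880 CPM (male) after hyperoxia against 15870 and 13150 CPM in room air. With called doublets left out it was 14910 and 15660 CPM against 15960 and 13290 CPM. Of 9 such regulators and fatty acid binding proteins, 0 were higher by edgeR, DESeq2 or at an unadjusted p under 0.05, 4 were lower (1 by DESeq2) and 9 of 9 had a negative change, with a median of -0.27. The 4 were Bhlhe41 (-0.71), a transcription factor of alveolar macrophage identity, Csf2ra (-0.40), a subunit of the GM-CSF receptor, Fabp4 (-0.69) and Fabp5 (-0.49), both fatty acid carriers. Bhlhe41 was called in 13 of 13 alternatives and Fabp5 in 5 of 13. The changes of the 9 genes with called doublets left out are not given singly here. The part of RNA from other cells in these changes was not tested. Elovl6, a fatty acid elongase, was 31.5 and 33.7 CPM in room air and 17.0 and 18.2 CPM after hyperoxia (-0.94, edgeR adjusted p = 0.000293), and was the 1 called gene of 8 in fatty acid synthesis. Lrp1, a lipoprotein receptor, was lower at -0.43 and was the 1 called gene of 13 in SREBP control and lipoprotein uptake. None of 11 genes of lysosomal release, transport and storage of cholesterol was called by edgeR or DESeq2, with 1 at an unadjusted p under 0.05 and a median of -0.15.

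**Figure D3:**
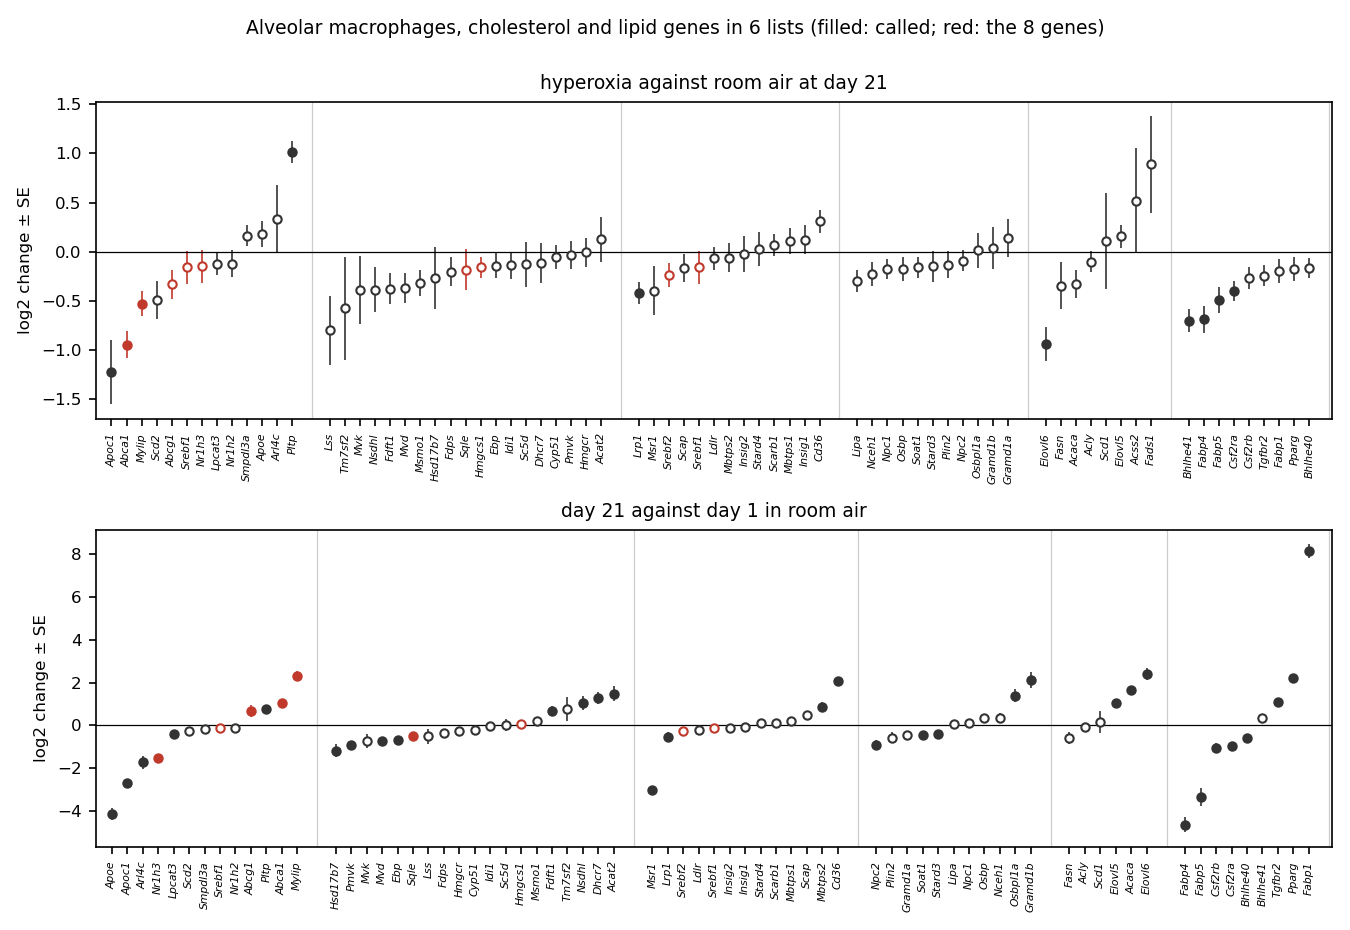
Fitted log2 change with its standard error (vertical axis) of tested genes of 6 cholesterol and lipid lists in alveolar macrophages, hyperoxia against room air above and day 21 against day 1 below, with called genes filled and the 8 genes in red. 1 synthesis enzyme is not drawn. After hyperoxia no synthesis enzyme drawn is filled, and the largest called rise is Pltp at 1.02.

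Over 14 classes with enough cells, 97 pairs of gene and class were tested, and the 2 in alveolar macrophages were the only ones called in the main test, against 2.28% of all gene and class pairs in the same fits. At an unadjusted p under 0.05 there were 8 pairs, and DESeq2 called 1 (0.935% of all pairs). By class, all genes under that unadjusted level ran from 172 of 12089 in T cells to 2176 of 11678 in alveolar macrophages. In neutrophils, where 0.95% of all genes were called, Abca1 was 27.6 and 29.0 CPM in room air and 24.3 (female) and 14.0 CPM (male) after hyperoxia, and it was not called. It was called in neutrophils with no filter (-0.64, edgeR adjusted p = 0.0225), with doublets left out (-0.57, edgeR adjusted p = 0.0228) and without the female hyperoxia library (-1.05, edgeR adjusted p = 0.000158). The last fit has no sex covariate and 1 hyperoxia library, which is assumed to vary like the room air libraries. Neutrophil Srebf2 was called higher under the same 3 alternatives, at 0.79, 0.70 and 1.03. Mylip was lower in aCap with doublets left out (-0.31, edgeR adjusted p = 0.0443) and in neutrophils without the female hyperoxia library (-0.52, edgeR adjusted p = 0.00206). Abcg1 in neutrophils was lower in the latter fit too (-0.55, edgeR adjusted p = 0.00042). Of 227 pairs of synthesis enzyme and class, edgeR and DESeq2 called 0, with 9 at an unadjusted p under 0.05.

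The second comparison was day 21 against day 1 in room air, which follows the lung through alveolar growth. In alveolar macrophages Mylip, Abca1 and Abcg1 were higher at day 21, and Nr1h3 and Sqle were lower. Of the 10986 genes tested in this class 53.8% were called (28.9% higher and 25% lower), so 5 of 8 is near the background. The day 1 libraries were counted with Cell Ranger 6.0.0 and the day 21 libraries with 7.0.1 according to the file headers, and age and software version cannot be told apart. When genes were split into 4 equal groups by total intron length, the median change in this class was 0.96 in group 4, the longest, and -0.18 in group 2. In this class Abca1, Abcg1 and Srebf2 fall in group 4 and the other 5 genes in group 2.

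Mylip was 13.1 CPM (female) and 6.53 CPM (male) at day 1 and 59.2 and 60.7 CPM at day 21. Both day 21 libraries lay above both day 1 libraries, with a log2 change of 2.31 (SE 0.227, edgeR adjusted p = 1.01e-08). The within-sex ratios were 4.53 (female) and 9.29 (male). Nr1h3 went the other way, from 75.0 and 78.4 CPM to 36.8 and 30.6 CPM, a log2 change of -1.54 (SE 0.167, edgeR adjusted p = 4.84e-08), with ratios of 0.491 and 0.390. Mylip and Nr1h3 lie in the intron length group whose median was -0.18, and both calls held in 12 of 12 alternatives. None of these alternatives changes the counting software, which differs with age.

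The 2 exporters were both higher at day 21. Abca1 rose from 26.6 and 25.8 CPM to 65.0 and 75.8 CPM, a log2 change of 1.07 (SE 0.174, edgeR adjusted p = 1.8e-05). That change exceeded the median of its intron length group by 0.11. Abcg1 rose from 766 and 664 CPM to 1431 and 1504 CPM, a log2 change of 0.69 (SE 0.274, edgeR adjusted p = 0.038), which was 0.27 below that median. Its call was lost without the male day 21 library (edgeR adjusted p = 0.0578). Every fit for treatment or age that leaves out 1 library has 3 libraries and no sex covariate, since the covariate would leave no residual degree of freedom. Thinned to 2000 UMIs, 72.3% and 71.2% of cells held an Abcg1 UMI at day 1 and 90.8% and 90.5% at day 21.

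The fitted scaling matters for the genes with small changes. The TMM factors centred the median of all genes at 0.04, while scaling by library totals put it at 0.40, and the share of calls that were higher went from 53.6% to 74.9%. Sqle was 24.4 and 15.9 CPM at day 1 and 19.0 and 16.4 CPM at day 21, with overlapping groups and a log2 change of -0.52 (SE 0.215, edgeR adjusted p = 0.0445). It was called in 3 of 12 alternatives, and with library totals its change was -0.17 (edgeR adjusted p = 0.574). Hmgcs1 was 80.7 and 68.1 CPM at day 1 and 95.2 and 100.6 CPM at day 21, a log2 change of 0.05 (SE 0.155) that became 0.40 and was called with library totals (edgeR adjusted p = 0.0471). Srebf1 was 26.2 and 22.7 CPM against 25.4 and 31.1 CPM, with a log2 change of -0.15 that became 0.21 with library totals. Srebf2 was 76.8 and 50.1 CPM against 65.9 and 67.3 CPM, with a change of -0.26 that became 0.10 with library totals and -0.50 (edgeR adjusted p = 0.00542) without the male day 1 library.

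Genes around these 8 moved in both directions with age, as did all genes tested in this class. By edgeR 28.9% of those were called higher and 25% lower, so a mix of directions in a list is near the background. Among 13 liver X receptor genes, 4 were higher and 5 lower, with Apoe at -4.14 (775 and 568 CPM to 84.3 and 26.0 CPM), Apoc1 at -2.72 and Pltp at 0.78. The list of alveolar macrophage lipid regulators had 3 higher and 5 lower of 9. Fabp1 went from 1.75 and 1.24 CPM to 507 and 573 CPM (8.16), and Pparg, the receptor that sets up surfactant breakdown in these cells, was higher by 2.21. Fabp4 (-4.64) and Fabp5 (-3.34) were lower. The synthesis enzymes held 4 higher and 6 lower of 20, with a median of -0.24, and 6 higher and 2 lower with library totals. DESeq2 called 0 higher and 1 lower. By edgeR with TMM the 4 were Acat2 (1.47), Dhcr7 (1.27), Nsdhl (1.04) and Fdft1 (0.69), and the lower ones included Hsd17b7 (-1.18), Pmvk (-0.91), Mvd (-0.73) and Ebp (-0.69) beside Sqle. With library totals Hsd17b7 and Pmvk remained called, and Mvd (-0.38) and Ebp (-0.33) did not.

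Uptake and storage genes were also mixed, beside the same shares over all genes tested. Cd36, a scavenger receptor for lipids, was higher by 2.09 and Msr1, another scavenger receptor, lower at -3.02. Gramd1b, which carries cholesterol from the plasma membrane inward, was higher by 2.12, while Npc2, which hands cholesterol out of lysosomes, was lower at -0.91 and Soat1, which esterifies it, at -0.43. With library totals Soat1 was -0.08 (edgeR adjusted p = 0.767) and not called. Fatty acid synthesis had 3 higher and 0 lower of 6 tested by edgeR and DESeq2 (1 lower at an unadjusted p under 0.05), namely Acaca (1.64), Elovl5 (1.05) and Elovl6 (2.41). In the same class monocyte markers summed to 1729 and 1044 CPM at day 1 against 409 and 293 CPM at day 21. Interstitial macrophage markers summed to 222 and 167 CPM against 22.2 and 8.61 CPM. Markers of AT1 cells summed to 278 and 325 CPM against 58.1 and 61.7 CPM, those of AT2 cells to 411 and 537 CPM against 205 and 179 CPM, and those of neutrophils to 544 and 554 CPM against 314 and 124 CPM. Endothelial markers were higher at day 21, at 121 and 70.6 CPM against 144 and 194 CPM. So were T cell markers, at 0.44 and 0.93 CPM against 8.79 and 10.9 CPM. The part of any of these in the changes was not tested.

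Over the 10 classes with enough cells at both ages, 42 of 75 pairs of gene and class were called, 21 higher and 21 lower, against 54.3% of all pairs tested. DESeq2 called 25, against 28% of all pairs. Sqle was lower at day 21 in 9 of the 9 classes where it was tested. In general capillary cells (gCap) it was 23.3 and 29.4 CPM at day 1 and 6.56 and 4.45 CPM at day 21 (-2.34, SE 0.194, edgeR adjusted p = 3.91e-15). In arterial cells it was 26.8 and 49.6 CPM against 4.09 and 4.26 CPM (-3.21, SE 0.311, edgeR adjusted p = 1.47e-11). The groups did not overlap in either class.

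The other declines of Sqle were -1.71 in aCap, -1.90 in venous cells, -1.89 in matrix fibroblasts and -2.32 in B cells. Sqle was called in 11 of 12 alternatives in B cells and in 9 of 11 in matrix fibroblasts. In NK cells Sqle was lower at -2.93 from 14 and 16 UMIs at day 1 and 5 and 1 at day 21, was called in 6 of 10 alternatives and ran from -4.99 to -1.54 without 1 library, the latter without the male day 21 library. Without the female day 21 library the venous change was -3.00, and in matrix fibroblasts the call was lost without the female day 1 library (edgeR adjusted p = 0.115). In myofibroblasts 122 and 41 UMIs at day 1 (12.6 and 9.34 CPM) stood against 0 and 1 UMI at day 21, so no fold is given. With library totals 8 of the 9 calls of Sqle held, the exception being alveolar macrophages. The medians of its intron length group lay between -0.26 and -0.08 over the 10 classes.

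By edgeR with TMM, by DESeq2 or at an unadjusted p under 0.05, Hmgcs1 was higher in none of the 10 classes. It was lower in 6 of 10 by edgeR. The 6 were arterial (-1.69), venous (-1.65), NK (-1.02), gCap (-0.97), matrix fibroblasts (-0.84) and aCap (-0.82). In arterial cells it was 69.5 and 110.5 CPM at day 1 and 25.2 and 33.6 CPM at day 21, without overlap. These calls were also made with library totals. The matrix fibroblast call was lost without the female day 1 (-0.56) or the female day 21 library (-0.70) and with equal cell numbers (-0.48). The NK call was lost without the female day 1 library (-0.94), with equal cell numbers (-0.90) and with called doublets left out, where the change was -0.23 (edgeR adjusted p = 0.624). Alveolar macrophages were not among them, at 80.7 and 68.1 CPM against 95.2 and 100.6 CPM. The difference between classes was not tested.

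Most called enzymes of the wider synthesis pathway were lower at day 21. Over the 10 classes, 91 of 171 pairs of enzyme and class were lower and 6 higher, where 25.7% of all pairs were lower and 28.6% higher. Without Hmgcs1 and Sqle, 76 of 152 were lower and 6 higher. Age and software version cannot be told apart in these counts, and the intron lengths of the other enzymes were not set beside them. Over the 10 classes the median change of all genes ran from -0.71 to -0.37 in intron length group 1, the shortest, and from 0.71 to 1.08 in group 4. By class, 15 of 18 enzymes were lower in arterial cells, 15 of 20 in gCap, 12 of 17 in NK cells, 12 of 17 in venous cells, 9 of 16 in B cells and 8 of 18 in aCap. The fewest were in neutrophils (3 of 11), myofibroblasts (5 of 19), alveolar macrophages (6 of 20) and matrix fibroblasts (6 of 15). Of all genes tested the share called lower was 27.8% in arterial cells, 32.5% in gCap, 20.2% in NK cells, 23.6% in venous cells, 23.5% in B cells and 24.9% in aCap. It was 29.8% in neutrophils, 24.8% in myofibroblasts, 25% in alveolar macrophages and 22.5% in matrix fibroblasts. DESeq2 called 43 lower and 0 higher, and library totals gave 76 lower and 9 higher. Called doublets were 10.9% (female) and 6.22% (male) of cells at day 1, and 2.03% and 1.31% at day 21 in room air. The counts of enzymes with doublets left out are not given here.

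**Figure D4:**
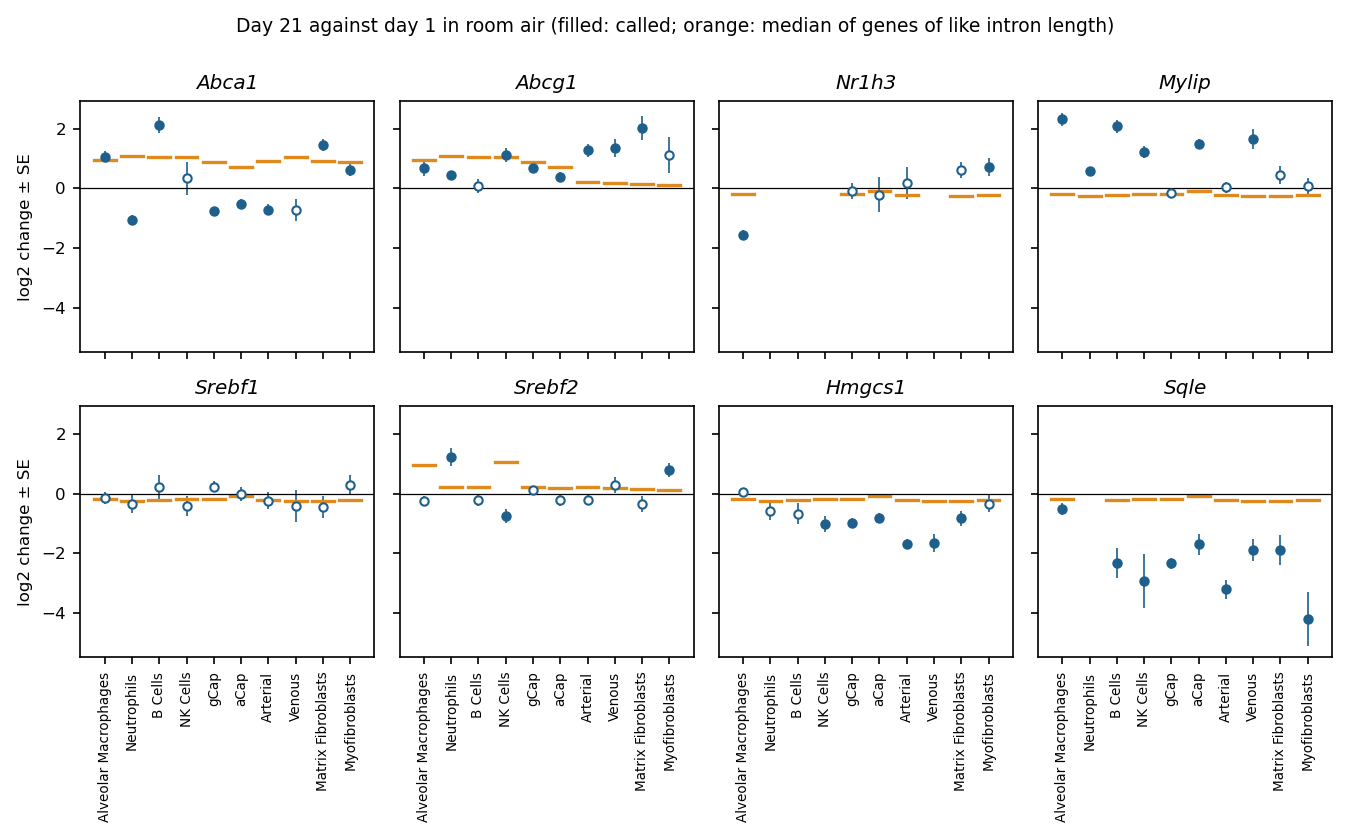
Fitted log2 change from day 1 to day 21 with its standard error (vertical axis) of each of the 8 genes (panels) in 10 classes (horizontal axis), with called values filled and orange bars for the median of genes of the same intron length group. Sqle lies below 0 in all 9 classes tested, from -0.52 in alveolar macrophages downward, and Abcg1 is called higher in 8 of 10.

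The calls of the export genes and Mylip were not the same in every class, and differences between classes were not tested. By edgeR, by DESeq2 or at an unadjusted p under 0.05, Abcg1 was lower in 0 of 10 classes. It was higher in 8 of 10 by edgeR. The changes ran from 0.40 in aCap to 1.36 in venous cells, with 2.02 in matrix fibroblasts, where it rested on 63 (female) and 10 UMIs (male) at day 21 and was 0.73 (edgeR adjusted p = 0.393) without the female day 21 library. The call was also lost without the male day 1 library in NK cells (edgeR adjusted p = 0.0531) and without either day 1 library in aCap (0.0726 and 0.183). The intron length groups were cut within each class, so the group of Abcg1 was not the same in all. In alveolar macrophages, neutrophils, aCap and gCap its rise was below the median of group 4, by 0.19 in gCap to 0.62 in neutrophils. In NK cells it was 0.06 above the median of group 4. In arterial cells, venous cells and matrix fibroblasts Abcg1 fell in group 3, with medians of 0.15 to 0.22, and its rise was above them.

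Mylip was higher in 6 of 10 classes by edgeR, and it was lower in 0 by each of the 3 criteria used for Abcg1. Beside alveolar macrophages its called changes were 2.08 in B cells (39.6 and 27.6 CPM to 154.8 and 163.7 CPM), 1.66 in venous cells, 1.49 in aCap, 1.23 in NK cells and 0.60 in neutrophils. In venous cells Mylip was 52 and 10 UMIs at day 1, and its change was 3.03 without the female and 0.88 without the male day 1 library, called in both. Abca1 was higher in 4 classes and lower in 4 (3 and 2 by DESeq2).

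The 4 classes with higher Abca1 were B cells (2.13), matrix fibroblasts (1.45), alveolar macrophages (1.07) and myofibroblasts (0.62). The 4 with lower Abca1 were neutrophils (-1.05), gCap (-0.76), arterial cells (-0.71) and aCap (-0.52). In B cells it went from 15.7 and 11.6 CPM to 68.6 and 65.9 CPM, and in neutrophils from 51.0 and 56.8 CPM to 27.6 and 29.0 CPM, without overlap in either. All 8 directions and calls of Abca1 were the same with library totals. In the fits of 3 libraries without the sex covariate, 3 of the calls were lost. Without the male day 21 library Abca1 in arterial cells was -0.41 (edgeR adjusted p = 0.0877), and without the male day 1 library it was -0.25 in aCap (edgeR adjusted p = 0.413). In myofibroblasts it was not called without the female day 1 (0.40), the female day 21 (0.44) or the male day 21 library (0.81). Abca1 is in the longest intron length group in all 10 classes, and the 4 falls lie below the medians of that group, which were 0.71 to 1.08. Of the 4 rises, that in myofibroblasts lay 0.25 below the median of its class. The rise in alveolar macrophages exceeded that median by 0.11, in matrix fibroblasts by 0.53 and in B cells by 1.08.

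Of the regulators, Srebf2 was higher in neutrophils (1.22) and myofibroblasts (0.80) and lower in NK cells (-0.75, called in 6 of 12 alternatives and not with library totals). The myofibroblast value was 0.55 without the male day 1 and 0.45 without the female day 21 library, neither called. Nr1h3 was higher in myofibroblasts (0.73), in 6 of 12 alternatives (0.37 without the male day 21 library, not called), and lower only in alveolar macrophages among the 6 classes tested. Srebf1 was called in 0 of 10 classes by edgeR or DESeq2, and 0 were at an unadjusted p under 0.05.

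AT2 cells, the makers of surfactant, were described and not tested. The rule of at least 50 cells in every library compared left them out, since the male day 21 room air library held 7. The other libraries held 54 (female) and 629 (male) AT2 cells at day 1, 133 in female day 21 room air, and 59 (female) and 84 (male) after hyperoxia. All 10 AT2 markers were present, summing to 161300 to 248700 CPM. Srebf1 was 36.3 and 41.4 CPM at day 1, 75.2 CPM in female day 21 room air, and 54.9 and 68.7 CPM after hyperoxia, so the 3 day 21 libraries lay above both day 1 libraries. Without called doublets the female day 1 value was 12.3 CPM, which rests on few UMIs and has no interval here. In females the ratio of hyperoxia to room air was 0.731 (0.542 to 0.971).

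Srebf2 in AT2 was 83.6 and 48.1 CPM at day 1, 107 CPM in female day 21 room air, and 116 and 118 CPM after hyperoxia. The female ratio of hyperoxia to room air was 1.08 (0.877 to 1.33). Hmgcs1 was 97.8 and 79.1 CPM at day 1, 108 CPM in room air and 88.6 and 74.6 CPM after hyperoxia, with a female ratio of 0.822 (0.650 to 1.03). Sqle was 21.3 and 6.46 CPM at day 1, 25.3 CPM in room air, and 16.0 and 27.9 CPM after hyperoxia, and its conditions overlapped.

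The export genes were low in AT2. Abca1 was 16.6 and 18.2 CPM at day 1, 28.3 CPM in female day 21 room air and 19.5 and 20.1 CPM after hyperoxia, with a female ratio of 0.689 (0.411 to 1.11) that spans equality. Abcg1 rested on 4 to 20 UMIs per library, at 1.33 to 8.86 CPM. Nr1h3 ran from 6.09 to 14.2 CPM and Mylip from 6.48 to 13.4 CPM. In the female day 1 AT2 cells the endothelial markers summed to 1591 CPM (28.6 CPM without called doublets), and without doublets Srebf2 there was 53.2 CPM and Hmgcs1 45.0 CPM. Few UMIs remained in that library without doublets, so those levels are uncertain. In the female room air AT2 cells neutrophil markers summed to 1054 CPM. The part of these cells in the levels was not tested.

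**Figure D5:**
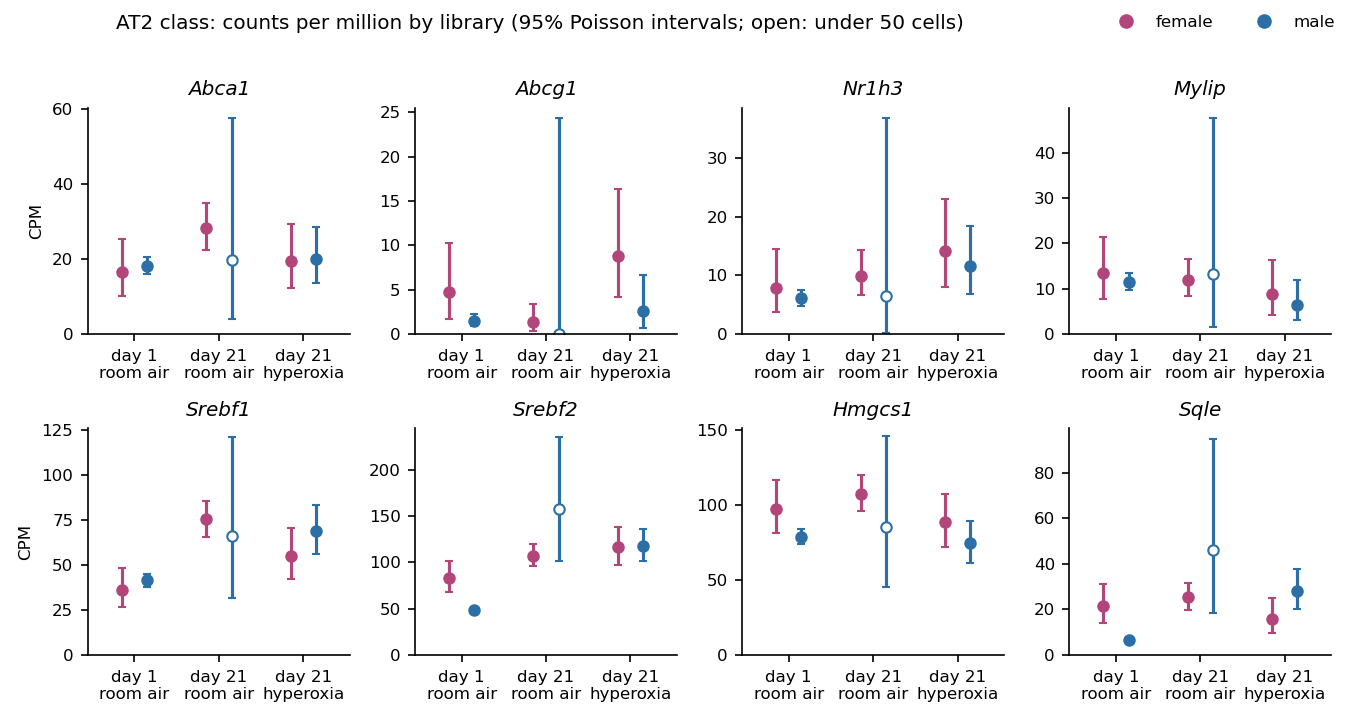
CPM of the 8 genes in the AT2 class (vertical axis, from 0, one panel per gene) in the 6 libraries, by condition, with sex as colour, exact Poisson 95% intervals as bars and an open point for the library with 7 cells. Srebf1 lies at 36.3 to 41.4 CPM at day 1 and at 54.9 to 75.2 CPM in the day 21 libraries with over 50 cells. Without called doublets the female day 1 value is 12.3 CPM, from few UMIs and not drawn.

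A second AT2 class, named by the authors for Lyz1 and large only at day 1, held 407 (female) and 1021 (male) cells. Its levels were 50.9 and 44.1 CPM for Srebf1, 67.1 and 50.3 CPM for Srebf2, 74.3 and 67.0 CPM for Hmgcs1, and 15.9 and 4.71 CPM for Sqle. In both AT2 classes at day 1 Sqle, Srebf2 and Hmgcs1 were higher in the female library. For Hmgcs1 in the AT2 class this was not so without the called doublets, where few UMIs remained. Abcg1 was 3.98 and 1.21 CPM, the lowest of the 20 classes at day 1.

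There was 1 library per sex and condition, so the interaction fit below has no replicates. Its spread comes from how the sexes differ between the ages in room air and from the other genes tested. Sex was compared over all 6 libraries with condition as a covariate. By edgeR 0 of 73 pairs of gene and class were called, against 0.105% of all pairs, with 5 at an unadjusted p under 0.05 and 0 by DESeq2. By class, all genes under that unadjusted level ran from 361 of 10497 in NK cells to 1249 of 14301 in gCap. The interaction of sex and hyperoxia gave 0 of 75 by edgeR, against 0.428% of all pairs, with 10 at an unadjusted p under 0.05 and 0 by DESeq2. All genes under that unadjusted level ran from 423 of 15006 in gCap to 947 of 11304 in neutrophils. For Abca1 in alveolar macrophages, where the male ratio after hyperoxia was lower than the female one, the interaction was 0.50 (SE 0.301, edgeR adjusted p = 1).

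The pattern of each gene over 112 pairs of class and library was set against 15184 other genes by Pearson's r of log2(CPM + 1). The points share 6 libraries and their depths, so r is a description. Sqle was most like Idi1 (0.85), Fdps (0.85) and Fdft1 (0.84), which are themselves enzymes of the same pathway. Hmgcs1 was most like Eci2 (0.85), Fdft1 (0.85) and Slc25a1 (0.84), the mitochondrial citrate carrier, and its r with Sqle was 0.80. Srebf1 was most like Npc1 (0.75), the lysosomal cholesterol exporter, Grb7 (0.74) and Vars2 (0.74). Srebf2 was most like Eif2ak4 (0.73), Cat (0.73) and Bcat2 (0.72).

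The export genes and their regulators had other neighbours. Nr1h3 was most like Angptl4 (0.81), a secreted inhibitor of lipoprotein lipase, Acp2 (0.80) and Fzd7 (0.79). Abcg1 was most like Ptbp3 (0.83), Actr2 (0.81) and Pitpna (0.78), and Abca1 like Ctsl (0.65), B3galnt1 (0.62) and Rusc2 (0.60). Mylip was most like Jak1 (0.77), Clk1 (0.75) and Rsbn1l (0.75). The 2 exporters had an r of 0.02 with each other.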

How the data were processed

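The deposited values were raw UMI counts per gene and barcode, made by the authors with Cell Ranger, version 6.0.0 at day 1 and 7.0.1 at day 21 per the file headers. The submitters' processing notes list Cell Ranger 6.0.0, Seurat 4.1.1 and mm10 for all libraries. Whether introns were counted, and whether doublets were removed, is not given in the sources used here. Classes come from the authors' deposited annotation, and the 22.0% to 32.8% of barcodes without one were left out. Of the genes in the files, 32158 (99.6%) were matched by identifier to GENCODE M21.

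Counts were summed per library and class, with a minimum of 50 cells in every library compared. They were tested with edgeR 4.0.16 (R 4.3.3, limma 3.58.1; filterByExpr, TMM scaling, quasi-likelihood test) with sex as a covariate for treatment and age, condition for sex, and both for their interaction. Standard errors were taken as the log2 change over the square root of F. The fit was run on simulated counts for alveolar macrophages, drawn from the same kind of model. They held no doublets and no difference in software, so the run does not test for those. CPM have exact Poisson 95% intervals, and ratios within a sex exact conditional ones, for counting error only.

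Doublets were called per library with Scrublet (scanpy 1.11.5) and kept in the main values. The alternatives were DESeq2 1.42.0, its size factors in edgeR, no filter, no covariate, a stricter cell filter (1000 genes, at most 10% mitochondrial UMIs), doublets left out, female hyperoxia cells without Xist left out, equal cell numbers, each library left out (without the sex covariate for treatment and age), and library totals in place of TMM, the last chosen after seeing the data.

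Named were all 8 genes, and every other gene of 6 lists (78 genes) called in alveolar macrophages, at most 12 per list, of which the text gives those with known roles. For 1 synthesis enzyme the values are in the counts and medians and are not reported here individually. The 3 most similar genes were taken among those with at least 10 CPM in 1 pair of class and library. Members and lists were chosen with earlier results of these data known.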

Additional observations from a re-analysis of the deposited data

How the results depend on the processing

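After hyperoxia the count of 2 genes called in alveolar macrophages became 1 with DESeq2, 1 without the female hyperoxia cells lacking Xist and 0 with equal cell numbers, and was 2 without any 1 library and with library totals. The 2 pairs over all classes became 1 with DESeq2, 4 with no filter, 5 with doublets left out, 1 without the cells lacking Xist and 0 with equal cell numbers, and ran from 2 to 6 when 1 library was left out (6 without female hyperoxia). For age, the 42 pairs became 25 with DESeq2 and were fewer in each fit without 1 library, where the 5 genes of alveolar macrophages also changed in number. The interaction gave 1 pair without the cells lacking Xist, Abcg1 in myofibroblasts (3.98, edgeR adjusted p = 0.0418). Where a value does not show the cause, the cause was not tested.

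Directions of genes that were not called turned in alveolar macrophages as follows (log2). After hyperoxia Nr1h3 was 0.0088 with doublets left out and -0.42 to 0.0126 without 1 library. For age Hmgcs1 was -0.0198 to 0.0788 without 1 library, and with library totals Srebf1 was 0.21 and Srebf2 0.10. Female against male, Abca1 was 0.0149 with doublets left out, 0.0142 with library totals, 0.097 without the cells lacking Xist and -0.18 to 0.14 without 1 library. Abcg1 was 0.0457 with library totals and -0.047 to 0.0103 without 1 library, and Mylip -0.0184 with equal cells and -0.0325 to 0.18 without 1 library. Without 1 library Hmgcs1 ran from -0.030 to 0.0554, Nr1h3 from -0.31 to 0.0417, Srebf1 from -0.16 to 0.10 and Srebf2 from -0.11 to 0.18. In the interaction Abcg1 was 0.0532 with equal cells. Hmgcs1 was -0.0006 with library totals, -0.0317 with doublets left out and -0.18 with equal cells. Mylip was 0.0555 without the cells lacking Xist and 0.24 with equal cells, and Sqle -0.0567 with doublets left out and -0.0497 with equal cells.

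Libraries were matched by sex through the covariate in the fits of all libraries. No paired analysis by replicate number was possible because the labels carry no such numbers. For treatment and age, leaving out 1 library also removed the sex covariate, since none could be fitted to 3 libraries, so those values change both choices, and the lone library of a condition is assumed to vary like the others. With all 4 libraries and no covariate, Sqle in alveolar macrophages with age was not called (edgeR adjusted p = 0.0594). The interaction was not run with a library left out, since no residual degree of freedom would remain. The limits include 1 library per group, 136 alveolar macrophages in female hyperoxia, and genes such as Sqle, whose 43 to 225 UMIs per day 21 library leave wide intervals. The software versions and called doublets given above are limits too.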

Other observations

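Nr1h3 stood apart in pericytes, the contractile cells that wrap capillaries, as far as levels go. It was 187 (female) and 150 CPM (male) at day 1, 252 and 279 CPM at day 21 in room air and 246 and 244 CPM after hyperoxia. The male room air library held 46 pericytes and stays out of the order of classes. Without called doublets the day 1 levels were 249 and 231 CPM. These values were not tested between classes.

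Abca1 in lymphatic endothelial cells was 327 CPM (female, 23 cells) and 315 CPM (male, 36 cells) in day 21 room air, and 138 and 189 CPM after hyperoxia. Without called doublets the hyperoxia values were 426 and 425 CPM and the room air values 335 and 354 CPM, so the order of the conditions turned. The class had too few cells for a test.

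Abca1 in interstitial macrophages 2 was 130.5 CPM in the female and 9.28 CPM in the male day 21 room air library, from 53 and 51 cells. After hyperoxia it was 88.1 CPM (female, 28 cells) and 118 CPM (male, 27 cells). No test was made in this class.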
